A study of Homo sapiens with 6 samples.

Results

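The genes described here are those that all 3 hepatocellular carcinoma lines of the study express in both RNA fractions. They are ordered by how far the relative ratio of ribosome-bound to whole-cell mRNA in Hep3B departs from that in HCCLM3 and MHCC97H. A gene was included when it reached 1 RPKM (reads scaled by gene-model length and library size) in all 6 libraries, which 9662 of 19089 genes did. For each line the log2 ratio of RNC-mRNA to mRNA was taken for every gene, on (RPKM + 0.1), and the line's median over the 9662 genes was subtracted. The shift of a gene is this centred ratio in Hep3B minus the mean of the centred ratios in HCCLM3 and MHCC97H, so a shift of 1 means a ratio 2-fold higher in Hep3B.

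RNC-mRNA is messenger RNA recovered together with ribosomes that carry a nascent chain, and mRNA here is the polyadenylated RNA of the whole cell. An mRNA joins the ribosome-bound pool through cap-dependent initiation, whose rate depends on the start of the transcript, on its coding sequence and on signalling to the initiation factors, and leaves it when ribosomes run off. Transcripts held in the nucleus or in silent particles appear in the whole-cell fraction alone. The ratio of the fractions, called the translation ratio, therefore compares genes by how much of their mRNA is loaded, without saying how many ribosomes each molecule carries.

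Hep3B libraries came from cells grown in MEM with 15% serum and sodium pyruvate, and HCCLM3 and MHCC97H libraries from cells in DMEM with 10% serum, all with penicillin, streptomycin and ciprofloxacin. Each library pooled equal amounts from 3 cultures, so there was 1 library per line and fraction and no spread between cultures could be measured. HCCLM3 and MHCC97H descend from the same parental line, both metastasise readily in mice, and they are not replicates of each other. Line and medium cannot be told apart. A gene is counted as higher or lower in Hep3B when its ratio was at least 2-fold above or below that of each other line, a rule of size and not a test. Intervals given are 95% Poisson intervals that cover counting error only.

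The deposited tables held between 119086844 and 147788269 reads per library. The fewest reads of an included gene in a library were 14, and the median of each gene's lowest count was 3352.5, which gave a median half-width of 0.07 for a shift. Of 12 hepatocyte markers all 12 reached 1 RPKM in both Hep3B fractions, while 8 in RNC-mRNA and 9 in mRNA did so in HCCLM3, and 8 and 11 in MHCC97H. Of 8 leukocyte markers 3 reached 1 RPKM in both Hep3B fractions and at most 2 in the other libraries, of 6 endothelial markers 0 and at most 2, and of 8 stellate and fibroblast markers 2 and at most 2. PTPRC, the pan-leukocyte gene, was at or below 0.103 RPKM in all 6 libraries, while LYZ, a lysozyme gene of myeloid cells, stood at 163 RPKM in Hep3B RNC-mRNA and 78.3 in Hep3B mRNA. Of the endothelial markers VWF was at or below 0.0601 RPKM in all 6 libraries, whereas PECAM1 had 6.49 RPKM in RNC-mRNA and 6.83 in mRNA of MHCC97H and KDR 1.36 and 1.71. PDGFRB of the stellate list had 11.1 RPKM in RNC-mRNA and 9.02 in mRNA of Hep3B and at most 0.0282 in the other lines. Whether such markers bear on any shift was not tested. No label states which letter in the tables is which fraction, and exchanging the letters would turn the sign of every ratio and shift.

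The spread between Hep3B and the other lines was wide. Shifts ran from -2.69 for SFT2D2 to 3.73 for APOC2, with 5% of genes below -1.04 and 5% above 0.92. Their SD across genes was 0.61, against 0.15 for the difference between HCCLM3 and MHCC97H, a ratio of 4.06. Hep3B lay outside both other lines for 8924 genes, 92.4% of those included. HCCLM3 did so for 55.4% and MHCC97H for 52.2%. For each gene the highest and the lowest line both count as outside, so these shares depend on each other. By the 2-fold rule 304 genes (3.15% of those included) were higher in Hep3B and 452 (4.68%) lower, 756 (7.82%) in all. The same rule met 1 gene in HCCLM3 (0.0103%), the laminin chain gene LAMB3, and 2 in MHCC97H (0.0207%), BIK and the clone-named AL627171.1. With no centring the median over all genes was -0.18 and the split was 158 higher to 784 lower. With TMM scaling of the counts, a weighted mean of log ratios, the median was 0.16 and the split 508 to 265. The balance of higher and lower genes thus depends on the scale chosen, and shifts are given relative to the median gene.

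**Figure D1:**
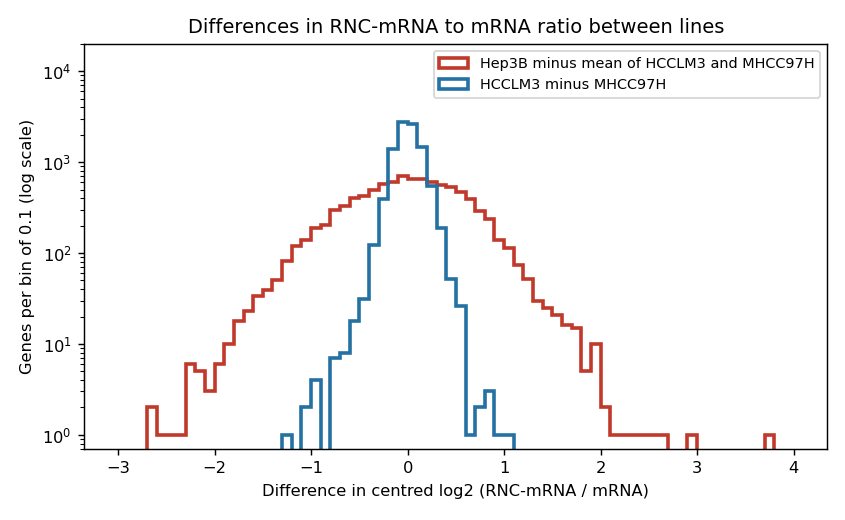
Number of genes (log scale) by difference in centred log2 ratio of RNC-mRNA to mRNA, in bins of 0.1, for Hep3B minus the mean of HCCLM3 and MHCC97H and for HCCLM3 minus MHCC97H, over 9662 genes. The Hep3B differences have an SD of 0.61 and those between the related lines an SD of 0.15.

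The first bases of an mRNA matter for the comparison of translation, because transcripts of ribosomal proteins and elongation factors begin with a C followed by a run of pyrimidines, the terminal oligopyrimidine (TOP) motif through which mTOR signalling controls their loading. The 25 bases around the RefSeq start of 12 genes are shown to set TOP transcripts beside genes with high and with low shifts, with 5 bases before the start and 20 from the start base on (RefSeq, GRCh38.p14, strand of the gene). Capitals mark a start base C with the unbroken pyrimidines that follow it, at least 4 of them, and sequences without capitals have no such run. These are annotated starts, and the starts used in these cells were not measured.
EEF2 (chr19:3985444-3985468, minus strand): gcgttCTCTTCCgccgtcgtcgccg
EEF1A1 (chr6:73521013-73521037, minus strand): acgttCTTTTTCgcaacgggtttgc
RPL18 (chr19:48619159-48619183, minus strand): gttctCTCTTTCCggacctggccga
FAU (chr11:65122115-65122139, minus strand): tcttcCTCTTTCTCgactccatctt
NAP1L1 (chr12:76084666-76084690, minus strand): tgggtCTTTTTTagcgccatctgct
CHCHD10 (chr22:23767953-23767977, minus strand): cccgcCTTTTTTgcgccggctgtga
CA9 (chr9:35673923-35673947, plus strand): tacacaccgtgtgctgggacacccc
APOC2 (chr19:44946046-44946070, plus strand): gagctggtgaggacagcctgccaga
SFT2D2 (chr1:168225999-168226023, plus strand): ctagcacccggaagagccgtcaact
WSB1 (chr17:27294109-27294133, plus strand): actccagtgtctcgtttgcagtcgg
TBC1D8 (chr2:101151363-101151387, minus strand): ctctcagagcgctgggcaccggccg
ARGLU1 (chr13:106568118-106568142, minus strand): cagccgcagctgccatcttaggggc
EEF2, EEF1A1, RPL18, FAU and NAP1L1 are established TOP genes, and their shifts were 1.45, 0.16, 0.65, 0.70 and -0.08. CHCHD10 carries a run of the same kind with a shift of 1.91, whereas CA9 and APOC2, also high, and the 4 low genes carry none. Over all included genes with a RefSeq start window, 637 of 7893 had the run in at least 1 of their windows (8.07%). Of 35116 single start windows read here 4.07% had it, a share of windows that cannot be set against a share of genes. Their median shift was 0.15, against -0.004 for the 7256 genes without it. The medians were 0.06 with it and -0.02 without it when genes were centred within bins of gene-model length. Among ribosomal protein genes the 47 with the run had a median of 0.31 and the 16 without it 0.31 as well.

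Where every library had 5 RPKM or more of a gene, genes past the 2-fold rule were ranked on each side by the smaller of their differences from HCCLM3 and from MHCC97H, and the first 12 of each side are described. This order is not that of the shift itself, and ALDOC (1.70) had a higher shift than the last of the upper 12. The upper 12 included metabolic enzymes, secreted proteins and stress-induced genes. CA9, carbonic anhydrase IX, a cell-surface enzyme that regulates pH and is induced in hypoxia, stood at 50.5 RPKM in RNC-mRNA and 8.06 in mRNA of Hep3B, against 32.4 and 30.8 in HCCLM3 and 17.3 and 9.57 in MHCC97H. Its shift of 2.36 (2.28 to 2.45) came with a lower mRNA level in Hep3B than in either other line. NDRG1, another hypoxia- and stress-induced gene, stood at 56.7 RPKM in RNC-mRNA and 10.6 in mRNA of Hep3B, against 177 and 129 in HCCLM3 and 96.1 and 55.7 in MHCC97H, a shift of 1.97 (1.93 to 2.02). In both genes the Hep3B transcript was scarcer in whole-cell RNA but over 5-fold more abundant in the ribosome-bound library than in the mRNA library of the same cells.

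CREB3L3, a liver transcription factor anchored in the endoplasmic reticulum, had 18.6 RPKM (RNC-mRNA) over 6.25 (mRNA) in Hep3B, 5.99 over 7.04 in HCCLM3 and 11.7 over 13.3 in MHCC97H. B3GNT3, a glycosyltransferase of the Golgi, had 17.2 RPKM (RNC-mRNA) over 5.81 (mRNA) in Hep3B, 5.94 over 7.27 in HCCLM3 and 6.81 over 7.36 in MHCC97H. Their shifts were 1.96 and 1.94, and in both genes RNC-mRNA exceeded mRNA in Hep3B alone. GAMT, the last enzyme of creatine synthesis, was also far more abundant in Hep3B, with 308 RPKM (RNC-mRNA) over 127 (mRNA) in Hep3B, 8.69 over 11.036 in HCCLM3 and 11.2 over 17.9 in MHCC97H. APOE, the lipoprotein ligand made by hepatocytes, had 3957 RPKM (RNC-mRNA) over 2098 (mRNA) in Hep3B, 7.42 over 10.5 in HCCLM3 and 6.06 over 9.73 in MHCC97H. The shifts of GAMT (1.97) and APOE (1.69) came beside a large difference in mRNA, 3.17 and 7.69 on the log2 scale.

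CHCHD10, a small protein of the mitochondrial intermembrane space, had 140.3 RPKM (RNC-mRNA) over 40.1 (mRNA) in Hep3B, 67.2 over 56.6 in HCCLM3 and 54.5 over 57.6 in MHCC97H. IGFBP4, a secreted carrier of insulin-like growth factors, had 15.3 RPKM (RNC-mRNA) over 5.50 (mRNA) in Hep3B, 111 over 117 in HCCLM3 and 156 over 161 in MHCC97H, so its level was lower in Hep3B in both fractions while its ratio was higher by 1.71. SDSL, an enzyme of serine and threonine breakdown, had 36.8 RPKM (RNC-mRNA) over 16.1 (mRNA) in Hep3B, 30.5 over 35.9 in HCCLM3 and 22.5 over 27.7 in MHCC97H. The remaining genes of the upper 12 were SLC22A18, a membrane transporter, with a shift of 1.67, FAM118A with 1.79 and FAM195B with 1.60. Across the 12 genes the mRNA difference between Hep3B and the mean of the other lines was below 0 in 9 and above 0 in 3, and the RNC-mRNA difference was above 0 in 10. Counting half-widths were 0.04 to 0.10, small beside shifts of 1.60 to 2.36.

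In all of the lower 12 genes Hep3B had more mRNA than the mean of the other lines, by 0.37 to 2.03 on the log2 scale. Their RNC-mRNA difference was below 0 in 8. The shift subtracts the mRNA difference, so a low rank favours more mRNA in Hep3B and a high rank favours less. SFT2D2, a membrane protein of vesicle transport, stood at 7.001 RPKM in RNC-mRNA and 23.4 in mRNA of Hep3B, against 19.8 and 7.77 in HCCLM3 and 19.1 and 9.86 in MHCC97H. Hep3B mRNA was highest and Hep3B RNC-mRNA lowest of the lines, with a shift of -2.69 (-2.80 to -2.57). WSB1, a substrate receptor of a ubiquitin ligase, stood at 7.39 RPKM in RNC-mRNA and 29.9 in mRNA of Hep3B, against 7.64 and 7.23 in HCCLM3 and 8.10 and 7.28 in MHCC97H, so the lines differed in mRNA alone and the shift was -1.93 (-1.99 to -1.87). ARGLU1, a nuclear splicing cofactor, showed the same layout, with 7.27 RPKM (RNC-mRNA) over 24.5 (mRNA) in Hep3B, 6.94 over 7.97 in HCCLM3 and 7.08 over 8.45 in MHCC97H and a shift of -1.33. So did MARCH6, a ubiquitin ligase of the endoplasmic reticulum, with 11.028 RPKM (RNC-mRNA) over 27.4 (mRNA) in Hep3B, 10.6 over 8.26 in HCCLM3 and 10.034 over 8.80 in MHCC97H and a shift of -1.39. In these 3 genes Hep3B mRNA was over 2-fold that of each other line, and RNC-mRNA was within 1.5-fold.

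TBC1D8, which carries the domain of Rab GTPase activators, had 11.7 RPKM (RNC-mRNA) over 44.5 (mRNA) in Hep3B, 20.3 over 19.6 in HCCLM3 and 17.8 over 19.1 in MHCC97H, a shift of -1.71. AGO2, the Argonaute protein that carries out microRNA-guided silencing, had 8.46 RPKM (RNC-mRNA) over 22.045 (mRNA) in Hep3B, 24.6 over 16.8 in HCCLM3 and 20.9 over 17.5 in MHCC97H, a shift of -1.58 in which the larger part lay in RNC-mRNA (-1.18, against 0.37 in mRNA). EREG, an EGF family ligand, had 6.93 RPKM (RNC-mRNA) over 9.69 (mRNA) in Hep3B, 15.3 over 6.35 in HCCLM3 and 21.4 over 8.46 in MHCC97H, a shift of -1.58. In the related lines both AGO2 and EREG had more RNC-mRNA than mRNA, and in Hep3B less. The other genes were ZBTB38, a zinc finger protein that binds methylated DNA (-1.64), ATP13A3, a polyamine transporter (-1.56), MED13L of the Mediator kinase module (-1.47), the formin FMNL2 (-1.46) and DIP2B (-1.45). Their gene models ran to 9530 bases, with a median of 4676.5 for the lower 12 genes and 2213 for the upper 12.

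**Figure D2:**
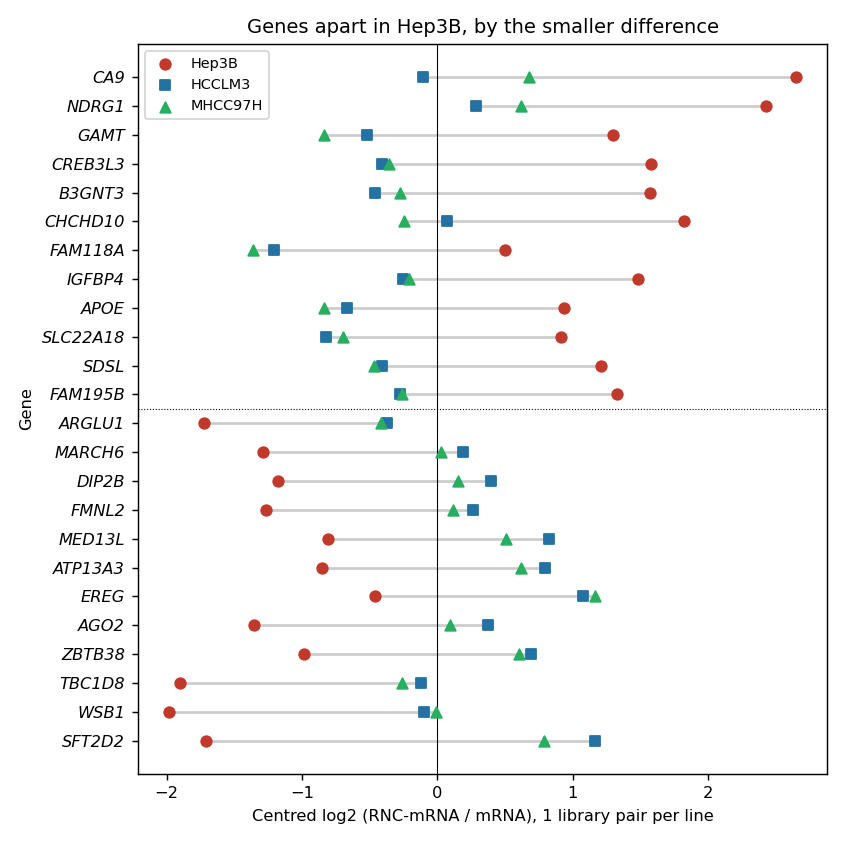
Centred log2 ratio of RNC-mRNA to mRNA in Hep3B, HCCLM3 and MHCC97H (1 library pair each) for 12 genes higher and 12 lower in Hep3B, ranked first on each side by the smaller of the differences from HCCLM3 and MHCC97H where all 6 libraries reached 5 RPKM. By the choice of genes, Hep3B lies to the right of both other lines in the upper 12 and to the left of both in the lower 12. HCCLM3 and MHCC97H lie closer to each other than to Hep3B in each of these chosen genes.

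The fraction that differed was not the same for higher and lower genes. For the 304 genes with a higher ratio in Hep3B the median difference was 1.32 in RNC-mRNA and -0.03 in mRNA, and 96 differed at least 2-fold in RNC-mRNA alone, 43 in mRNA alone, 96 in both and 69 in neither. For the 452 genes with a lower ratio it was -0.62 in RNC-mRNA and 0.71 in mRNA, and 120 differed in RNC-mRNA alone, 134 in mRNA alone, 43 in both and 155 in neither. Over all 9662 genes a difference of at least 2-fold between Hep3B and the mean of both lines was found for 30.3% in RNC-mRNA and 27.8% in mRNA. It lay in RNC-mRNA alone for 11.1%, in mRNA alone for 8.6%, in both for 19.2% and in neither for 61.1%. In the same order the shares were 31.6%, 14.1%, 31.6% and 22.7% of the higher genes and 26.5%, 29.6%, 9.51% and 34.3% of the lower genes. In the median, higher ratios thus lay in RNC-mRNA, and lower ratios were shared between more mRNA and less RNC-mRNA. The shift is the RNC-mRNA difference minus the mRNA difference, so these counts describe its parts and are not separate evidence.

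**Figure D3:**
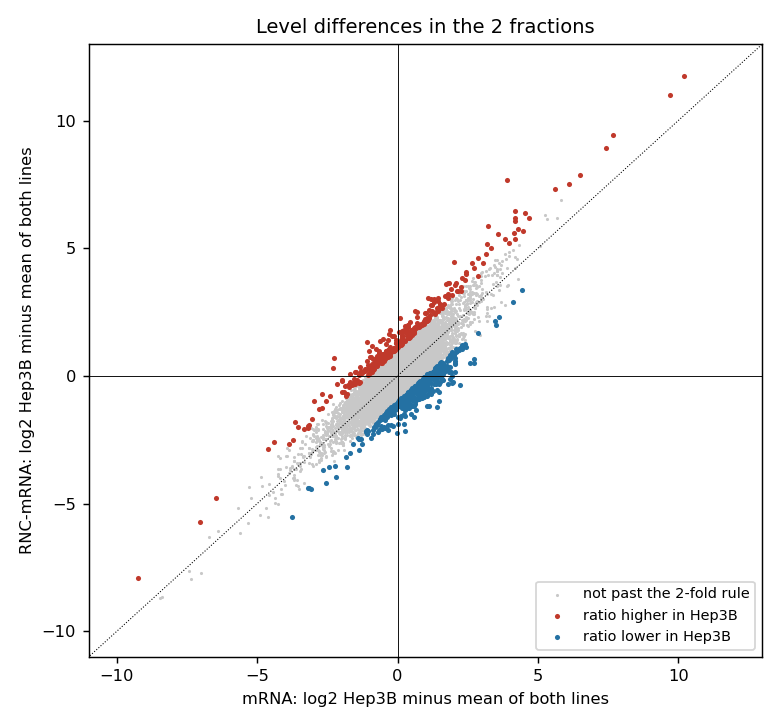
Log2 difference of Hep3B minus the mean of HCCLM3 and MHCC97H in RNC-mRNA against the same in mRNA, each centred on its median over 9662 genes, with the genes past the 2-fold rule in colour. Genes with a higher ratio (304) lie above the dotted line of equal differences and those with a lower ratio (452) below it, as the rule fixes.

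Gene-model length ran through the whole ranking. From the shortest to the longest quintile of genes (median lengths of 1473, 2381.5, 3278, 4437.5 and 6580 bases) the median shift was 0.35, 0.20, 0.02, -0.18 and -0.45. The ratio in Hep3B had medians of 0.44 in the shortest and -0.49 in the longest quintile, while HCCLM3 had 0.06 and -0.02 and MHCC97H 0.08 and -0.06. The gradient was therefore seen in Hep3B. In the shortest quintile Hep3B minus the other lines was 0.07 in RNC-mRNA and -0.28 in mRNA, and in the longest quintile -0.10 in RNC-mRNA and 0.35 in mRNA, so most of it lay in mRNA. The shortest quintile held 129 genes higher and 29 lower by the 2-fold rule, and the longest 11 higher and 287 lower. Across genes, which are not independent and share the libraries, Spearman's rho of shift and length was -0.47, and that of HCCLM3 minus MHCC97H and length 0.20. Gene models stand here for transcripts, whose real lengths were not measured.

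Expression level ran with the shift too. By quintiles of mean RPKM the median shift was -0.33, -0.19, -0.02, 0.18 and 0.36 from low to high, with a rho of 0.42, and for GC content from 250 bases before to 50 after the start rho was 0.09. When genes were centred within 20 bins of length, 224 were higher (2.32%) and 209 lower (2.16%), 4.48% in all. Of the 304 higher genes 153 passed again when centred by length (50.3%), and of the 452 lower genes 160 (35.4%). Within 25 cells of length and level 237 were higher (2.45%) and 184 lower (1.9%). All of the upper 12 genes and 10 of the lower 12 kept a length-matched shift of at least 1 in size. Their part in the shifts was not tested further, and for many lists the median and counts under these centrings are given where they differ.

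**Figure D4:**
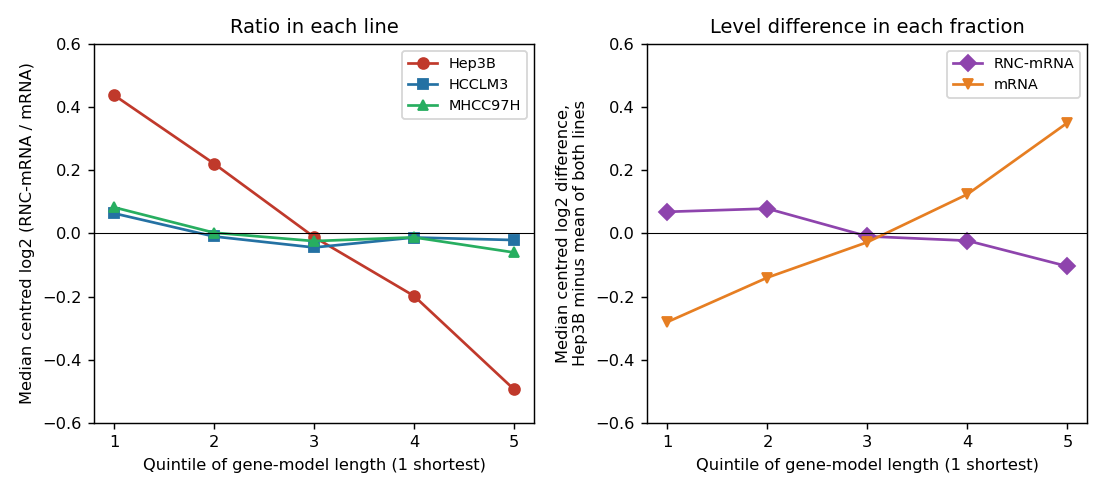
Left, median centred log2 ratio of RNC-mRNA to mRNA in each line by quintile of gene-model length, 1 the shortest. Right, median log2 difference of Hep3B minus the mean of HCCLM3 and MHCC97H in RNC-mRNA and in mRNA by the same quintiles. Hep3B runs from 0.44 to -0.49 over the quintiles and the other lines stay between -0.06 and 0.08.

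Of 35 gene lists, 18 kept the sign of their median shift with no centring and with TMM scaling, 10 above and 8 below 0. The median over all included genes was 0.01. Counts of each list are to be read against the shares over all included genes, 3.15% higher and 4.68% lower. These shares were 2.32% and 2.16% with length matched, and 2.45% and 1.9% with length and level matched.

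Secreted liver proteins had the highest median, 1.27 (1.06 length-matched). Of 54 listed genes measured in any library, 19 passed the filter of at least 1 RPKM in all 6 libraries, and 11 of the 19 were higher (57.9%, against 3.15% of all included genes) and 0 lower. The count was 8 when length was matched and 4 with length and level matched. ALB, serum albumin, had 4908 RPKM (RNC-mRNA) over 4164 (mRNA) in Hep3B, 1.03 over 1.93 in HCCLM3 and 6.90 over 12.008 in MHCC97H. TF, the iron carrier transferrin, had 947 RPKM (RNC-mRNA) over 884 (mRNA) in Hep3B, 5.20 over 11.1 in HCCLM3 and 4.27 over 8.31 in MHCC97H, and AHSG, fetuin-A, had 8019 RPKM (RNC-mRNA) over 4064 (mRNA) in Hep3B, 3.19 over 3.79 in HCCLM3 and 2.15 over 2.94 in MHCC97H. At mRNA levels that differed by orders of magnitude, the ratio was below 1 in both related lines and above 1 in Hep3B for all 3 genes. Further genes past the rule were APOM, an apolipoprotein of HDL (1.79), RBP4, the retinol carrier (1.66), AGT, angiotensinogen (1.44), SERPINF1 (1.41), F2, prothrombin (1.37), and CLU, clusterin (1.27). CLU was abundant in all lines, with 499.6 RPKM (RNC-mRNA) over 357 (mRNA) in Hep3B, 200.4 over 321 in HCCLM3 and 159 over 226 in MHCC97H. IGFBP1, an insulin-like growth factor carrier induced by fasting, ranked highest of the list at 2.56 (2.37 to 2.74), with 12.5 RPKM (RNC-mRNA) over 1.29 (mRNA) in Hep3B, 13.8 over 7.40 in HCCLM3 and 10.2 over 6.06 in MHCC97H. The complement genes C5 and CFI stood below 0 (-0.70 and -0.11).

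Cholesterol synthesis and uptake genes followed with a median of 0.79 (0.70 length-matched). Of 27 members 8 were higher (29.6%, against 3.15% of all included genes) and 0 lower, with 7 and 6 higher when length, and length and level, were matched. They included MVK, PMVK and MVD of the mevalonate steps (1.25, 1.24 and 1.53), DHCR7 and TM7SF2 of the late sterol reductions (1.30 and 1.96), and the regulators SREBF1 and INSIG1 (1.31 and 1.03). DHCR7, the last enzyme of the pathway, had 104 RPKM (RNC-mRNA) over 64.1 (mRNA) in Hep3B, 44.7 over 58.9 in HCCLM3 and 42.4 over 57.7 in MHCC97H, and SREBF1, a transcription factor of lipid synthesis, had 91.8 RPKM (RNC-mRNA) over 49.1 (mRNA) in Hep3B, 53.8 over 55.7 in HCCLM3 and 54.2 over 70.7 in MHCC97H. The mRNA of DHCR7 and SREBF1 was within 1.5-fold between lines, and RNC-mRNA was higher in Hep3B. The lowest members were STARD4 (-0.40) and INSIG2 (-0.24), neither past the rule.

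Glycolysis genes had a median of 0.49 (0.37 length-matched), with 3 of 16 higher (18.8%, against 3.15% of all included genes) and 0 lower. With length matched 4 were higher and 0 lower, and with length and level matched 1 was higher and 1 lower. ALDOA, an aldolase, had 694 RPKM (RNC-mRNA) over 351 (mRNA) in Hep3B, 853 over 1007 in HCCLM3 and 755 over 824 in MHCC97H, and its paralogue ALDOC had 15.2 RPKM (RNC-mRNA) over 5.74 (mRNA) in Hep3B, 7.26 over 8.71 in HCCLM3 and 6.16 over 6.14 in MHCC97H. GAPDH had 2399 RPKM (RNC-mRNA) over 1328 (mRNA) in Hep3B, 3554 over 3576 in HCCLM3 and 3315 over 3262 in MHCC97H, a shift of 1.03. In Hep3B the ribosome-bound level of ALDOA came close to that of the other lines at an mRNA level over 2-fold lower. PFKFB3, which makes the activator of phosphofructokinase, had -0.996 and did not meet the rule.

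Few genes of the translation machinery itself met the rule. Cytosolic ribosomal proteins had a median of 0.31, with 68 of 79 above 0, 1 higher (RPS2, 1.29) and 0 lower, but their length-matched median was 0.03 and 0 were then past the rule. The 1 higher gene is 1.27% of the list, against 3.15% of all included genes. RPS2 had 1532 RPKM (RNC-mRNA) over 968 (mRNA) in Hep3B, 1318 over 1759.5 in HCCLM3 and 1103 over 1527 in MHCC97H. Many ribosomal protein genes have processed pseudogenes, and the counting of reads shared with such copies is not stated in the labels. Elongation factors and other TOP mRNAs had a median of 0.25 (0.39 length-matched), with 17 of 18 above 0 and 1 higher (5.56%, against 3.15% of all included genes). That gene was EEF2, the translocase of elongation, with 2864 RPKM (RNC-mRNA) over 1602 (mRNA) in Hep3B, 548 over 699 in HCCLM3 and 679 over 955 in MHCC97H and a shift of 1.45. EEF1G stood at 0.78 and HNRNPA1 at 0.02. Initiation factors had a median of 0.25 (0.18 length-matched) with 0 of 33 past the rule, from EIF3G at 0.78 to EIF4G2 at -0.71.

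Of the other parts of the machinery, aminoacyl-tRNA synthetases had a median of 0.07 and ribosome biogenesis factors 0.03, with 0 of 20 and 0 of 38 past the rule, and both were below 0 with no centring (-0.12 and -0.16). With length matched 1 synthetase was higher. With length and level matched 0 were, and the median of the synthetases was -0.09. Within the synthetases QARS (0.95) and VARS (0.94) stood against IARS (-0.51). Mitochondrial ribosomal proteins had a median of 0.32 (0.06 length-matched) and 0 of 75 past the rule. Respiratory chain subunits had 0.34 (0.03 length-matched), with 2 of 75 higher (2.67%, against 3.15% of all included genes) and 0 lower. The 2 were NDUFS7 of complex I (1.18) and ATP5D of the ATP synthase (1.11). With length matched 1 respiratory gene was higher, and 0 with level matched too. These families of short genes thus stood above 0 together, and their medians were near 0 against genes of their own length.

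The lowest medians were those of ubiquitin ligases and of chromatin modifiers, at median lengths of 6741 and 7184.5 bases against 3278 for all included genes. With length matched, mitosis genes (-0.50) and SR proteins and CLK kinases (-0.46), described below, had the lowest medians. Ubiquitin ligases and deubiquitinases had a median of -0.65 (-0.24 length-matched), all 37 stood below 0, and 6 were lower (16.2%, against 4.68% of all included genes) and 0 higher. When length was matched 2 were lower, against 2.16% of all included genes, and 3 with length and level matched. UBR4, a very large ligase of the N-degron pathway, had 4.35 RPKM (RNC-mRNA) over 35.9 (mRNA) in Hep3B, 12.2 over 16.5 in HCCLM3 and 11.5 over 18.3 in MHCC97H, a shift of -2.27. BIRC6, a large ligase that inhibits apoptosis, had 2.03 RPKM (RNC-mRNA) over 7.21 (mRNA) in Hep3B, 3.9993 over 3.11 in HCCLM3 and 4.34 over 3.75 in MHCC97H, a shift of -1.87. Also past the rule were CBL, USP34 and NEDD4 (-1.24, -1.23 and -1.20), and the least moved was CUL4B at -0.08. UBR4 and BIRC6 kept length-matched shifts of -1.55 and -1.15. Chromatin modifiers and remodellers had a median of -0.58 (-0.21 length-matched), with 10 of 56 lower (17.9%, against 4.68% of all included genes) and 0 higher. Of the 56, 0 were lower when length was matched and 1 with length and level matched, against 2.16% and 1.9% of all included genes. The 10 included the methyltransferases MLL3, MLL2 and MLL (-1.65, -1.56 and -1.48), the remodelling subunits ARID2 and PBRM1 (-1.53 and -1.13) and the helicases CHD6, CHD7 and CHD1 (-1.43, -1.08 and -1.02).

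SR proteins and CLK kinases, the regulators of splice site choice, had a median of -0.55, and it stayed at -0.46 when length was matched. Of 32 members 27 stood below 0, 2 were lower (6.25%, against 4.68% of all included genes) and 0 higher. With length, and length and level, matched 1 and 3 were lower. SRSF11 had 9.53 RPKM (RNC-mRNA) over 30.8 (mRNA) in Hep3B, 13.2 over 17.2 in HCCLM3 and 13.8 over 18.2 in MHCC97H, a shift of -1.11, and RBM25 had 4.44 RPKM (RNC-mRNA) over 15.2 (mRNA) in Hep3B, 9.0003 over 12.1 in HCCLM3 and 8.82 over 12.048 in MHCC97H, a shift of -1.13. In both the Hep3B ratio was the lowest of the lines, although the related lines also held less in RNC-mRNA than in mRNA. Core spliceosome proteins had a median of 0.07 (-0.12 with no centring), with 1 of 42 higher (SF3A2, 1.22) and 2 lower (DHX15, -1.15, and SF3B1, -1.08). These are 2.38% and 4.76% of the list, near the 3.15% and 4.68% of all included genes. With length matched 0 were higher and 1 lower. Proteins of the hnRNP family had a median of -0.05 (0.10 with TMM scaling) and 0 of 25 past the rule. Their median was 0.12 with length matched and -0.21 with length and level matched.

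Genes of mRNA decay and microRNA silencing had a median of -0.41 (-0.27 length-matched), with 7 of 35 lower (20%, against 4.68% of all included genes) and 0 higher. The count was 2 when length was matched and also 2 with length and level matched. SMG1, the kinase of nonsense-mediated decay, had 3.82 RPKM (RNC-mRNA) over 14.3 (mRNA) in Hep3B, 6.55 over 4.98 in HCCLM3 and 6.79 over 5.84 in MHCC97H, a shift of -1.99. Beside AGO2 the list held AGO3 (-1.06), its partner TNRC6A (-1.05), the microRNA processing enzyme DICER1 (-1.22), the decapping activator DDX6 (-1.16) and the deadenylase subunit PAN3 (-1.16). UPF1, the helicase of nonsense-mediated decay, stood at 0.34 on the other side. Nuclear pore and transport genes had a median of -0.23 (-0.07 length-matched), with 4 of 35 lower (11.4%, against 4.68% of all included genes) and 0 higher. The 4 were NUP107, NUP153, RANBP2 and TNPO1. Under either matching 1 of the 35 was lower, near the shares of 2.16% and 1.9% over all included genes.

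Cell cycle lists had medians below 0 at median lengths (2934.5 bases for mitosis and 3169 for replication) below that of all included genes, 3278. Mitosis and chromosome segregation genes had a median of -0.33, which was -0.50 when length was matched. Of 50 members 39 stood below 0, 4 were lower (8%, against 4.68% of all included genes) and 0 higher. With length, and length and level, matched 1 and 2 were lower. CENPF, a kinetochore protein, had 7.81 RPKM (RNC-mRNA) over 32.6 (mRNA) in Hep3B, 8.07 over 13.046 in HCCLM3 and 9.35 over 14.1 in MHCC97H, a shift of -1.23. KIF14, a mitotic kinesin, SMC4 of condensin and ECT2 of cytokinesis followed (-1.23, -1.16 and -1.06). DNA replication genes had a median of -0.25 (-0.35 length-matched). Of 43 members 1 was higher (2.33%) and 2 lower (4.65%), near the 3.15% and 4.68% of all included genes. The lower genes were the polymerase subunits POLA1 and POLD3 (-1.19 and -1.06). With either matching 0 were lower and 1 higher. The higher gene was CDT1, which licenses replication origins, with 61.6 RPKM (RNC-mRNA) over 35.1 (mRNA) in Hep3B, 26.1 over 31.9 in HCCLM3 and 23.5 over 31.4 in MHCC97H and a shift of 1.35.

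Giant cytoskeletal proteins had a median of -0.52, which turned to 0.20 when length was matched. Of 24 members 5 were lower (20.8%, against 4.68% of all included genes) and 0 higher. The 5 were UTRN, IQGAP1, MACF1, AHNAK and DST. With length matched 0 were lower and 1 higher. With length and level matched the median was again below 0, at -0.19, and 2 were lower. UTRN, utrophin, had 7.54 RPKM (RNC-mRNA) over 26.1 (mRNA) in Hep3B, 2.43 over 2.19 in HCCLM3 and 1.94 over 2.26 in MHCC97H, and its length-matched shift was -0.84. The sign of this list therefore differed between the centrings.

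**Figure D5:**
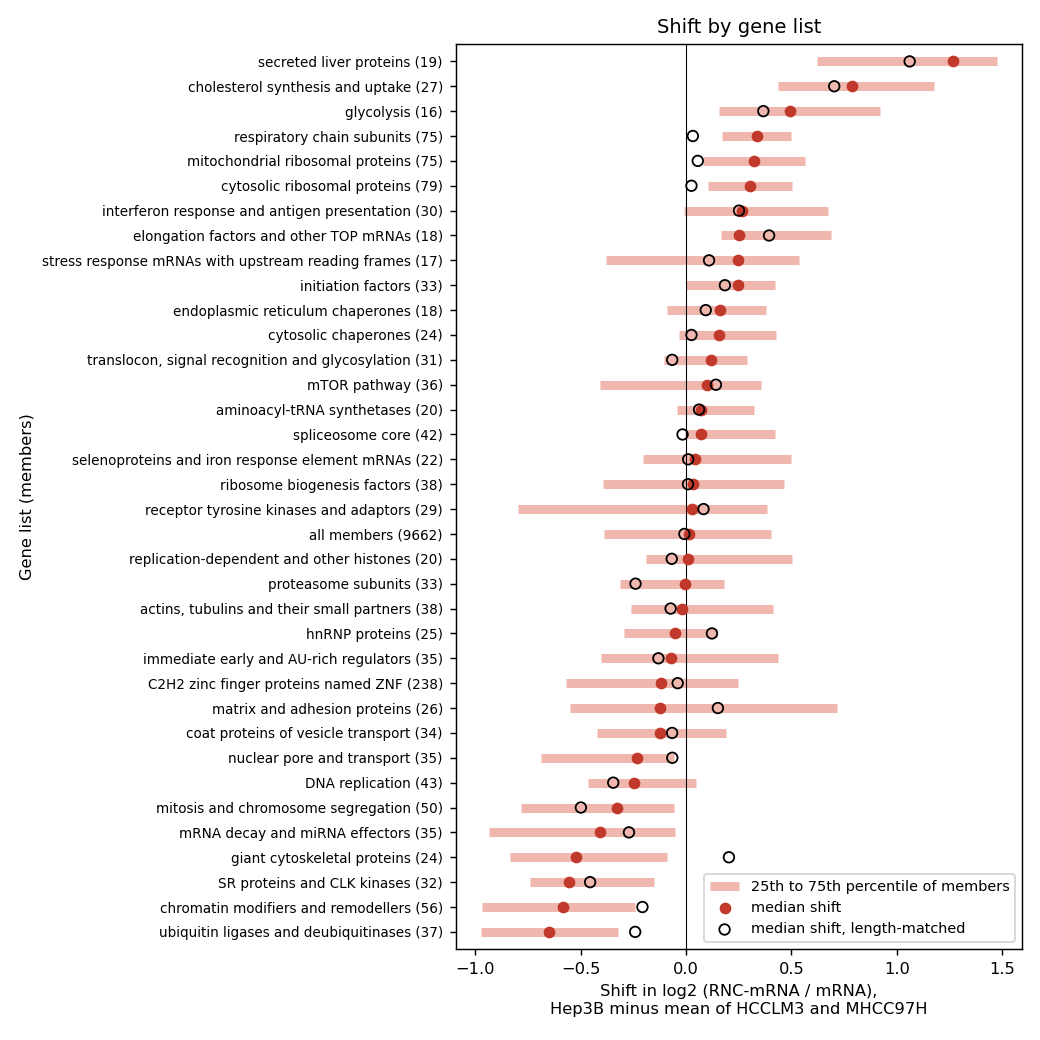
Median shift (filled), 25th to 75th percentile of the members (bar) and length-matched median shift (open) for 35 gene lists and for all included genes, with the number of members in brackets. Secreted liver proteins stand at 1.27 and cholesterol genes at 0.79, ubiquitin ligases at -0.65, and the open circles of the ribosomal and respiratory lists lie near 0.

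Stress response mRNAs with upstream reading frames, which are translated when eIF2 is phosphorylated, had a median of 0.25 (0.11 length-matched, -0.037 with length and level matched), with 2 of 17 higher (CEBPB, 1.28, and TRIB3, 1.18) and 2 lower (SLC7A11, -1.32, and IBTK, -1.06). Each pair is 11.8% of the list, against 3.15% higher and 4.68% lower of all included genes. None of the 17 was past the rule under either matching. CEBPB had 75.2 RPKM (RNC-mRNA) over 31.9 (mRNA) in Hep3B, 124 over 96.6 in HCCLM3 and 114 over 119.6 in MHCC97H, and SLC7A11, a cystine importer, had 1.94 RPKM (RNC-mRNA) over 3.62 (mRNA) in Hep3B, 24.6 over 15.967 in HCCLM3 and 30.1 over 18.9 in MHCC97H. Interferon response and antigen presentation genes had a median of 0.27 (0.25 length-matched), with 2 of 30 higher (6.67%, against 3.15% of all included genes) and 0 lower. The 2 were UBA7 (1.75) and ISG15 (1.05), an enzyme and its substrate in ISG15 conjugation. With either matching 1 of the 30 was higher. UBA7 had 1.32 RPKM (RNC-mRNA) over 1.23 (mRNA) in Hep3B, 1.97 over 5.51 in HCCLM3 and 1.09 over 3.27 in MHCC97H, and ISG15 had 37.4 RPKM (RNC-mRNA) over 22.1 (mRNA) in Hep3B, 46.4 over 50.3 in HCCLM3 and 36.4 over 39.036 in MHCC97H.

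The remaining lists had medians that changed sign with the scaling. With no centring 10 lists turned below 0 and with TMM scaling 7 others turned above 0, the synthetase, ribosome biogenesis, spliceosome and hnRNP lists among them, all with medians between -0.12 and 0.16. On the positive side were cytosolic chaperones (0.15, with HSPA1B higher at 1.95 uncertain because of its near-identical copy HSPA1A), endoplasmic reticulum chaperones (0.16), translocon and glycosylation genes (0.12), the mTOR pathway (0.10), selenoproteins and iron response element mRNAs (0.04), receptor tyrosine kinases and adaptors (0.03) and histones (0.01). On the negative side were coat proteins of vesicle transport (-0.12), matrix and adhesion proteins (-0.12), ZNF zinc finger proteins (-0.12), immediate early regulators (-0.07), actins and tubulins (-0.02) and the proteasome (-0.01). The proteasome median was -0.24 with length matched and -0.33 with length and level matched. That of actins and tubulins was -0.07 and -0.26. Single members still stood far apart. RICTOR, the defining subunit of mTOR complex 2, was at -1.92 with 1.10 RPKM (RNC-mRNA) over 3.68 (mRNA) in Hep3B, 2.06 over 1.40 in HCCLM3 and 2.32 over 1.75 in MHCC97H. ITGAV, the alpha-V integrin chain, was at -2.46 with 3.52 RPKM (RNC-mRNA) over 17.9 (mRNA) in Hep3B, 16.8 over 13.8 in HCCLM3 and 20.9 over 15.9 in MHCC97H, and PLAUR, the urokinase receptor, at -1.82 with 1.09 RPKM (RNC-mRNA) over 4.02 (mRNA) in Hep3B, 19.5 over 20.3 in HCCLM3 and 24.5 over 17.6 in MHCC97H.

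Matrix genes in all had 2 of 26 higher (7.69%, against 3.15% of all included genes), among them LAMB3 (1.80). Of the 26, 3 were lower (11.5%, against 4.68%), ITGAV, PLAUR and ITGA2 (-1.46). When length was matched 4 were higher and 2 lower. Zinc finger genes had 6 of 238 higher (2.52%, against 3.15% of all included genes) and 8 lower (3.36%, against 4.68%), shares no larger than those over all genes, with ZNF524 (1.49) and ZNF281 (-1.29) at the ends. With length matched 3 were higher and 4 lower, and with length and level matched 5 and 1. In the receptor tyrosine kinase list 4 of 29 were lower (13.8%, against 4.68% of all included genes) and 0 higher. Among the 4 were FRS2 (-1.46), BRAF (-1.25) and SOS1 (-1.10). In the mTOR list 1 of 36 was lower (2.78%), RICTOR, and 0 higher. Each of these lists had 1 higher and 1 lower when length was matched. In the immediate early list JUND (1.10) and GADD45A (1.03) were higher and CTGF (-1.33) lower of 35, with 0 higher and 2 lower when length was matched. Before matching, the shares were 5.71% higher and 2.86% lower, against 3.15% and 4.68% of all included genes. Of the histones 1 of 20 was higher (5%), the linker histone H1FX (1.60). Of the actin and tubulin list 1 of 38 was higher (2.63%), ACTG1, which encodes gamma-actin (1.11). Both shares are to be read against 3.15% of all included genes. With length matched 1 histone and 0 of the actin and tubulin list were higher. No member of the endoplasmic reticulum chaperone, translocon, coat protein, proteasome or selenoprotein lists met the rule, of 18, 31, 34, 33 and 22. With length and level matched 1 of the selenoprotein list was lower.

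The filter at 1 RPKM was the only choice of members, and genes at its edge had ordinary and extreme shifts alike. Just inside it, ABCC6 had a lowest value of 1.0004 RPKM and a shift of 0.26, and IGFBPL1 1.0012 RPKM and -0.25. Just outside, PFKFB4 had a lowest value of 0.99964 RPKM and a shift of 2.46, and PPP1R42 0.99864 RPKM and 0.16.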

How the data were processed

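Polyadenylated mRNA and RNC-mRNA of 3 lines were sequenced from 6 libraries made with an NEBNext mRNA kit, per the labels. The authors deposited, per gene and library, a read count and an RPKM value. Counts were whole numbers, and RPKM were counts scaled by gene-model length and a library total set by the authors (129948939 to 157181586). Gene-model lengths recovered from the deposited counts and RPKM lay within 8.93e-09 of whole numbers. The submitters' processing notes name edgeR and hg19, without a role. The sources used here do not give the aligner, the counting, its strand setting or its handling of shared reads. C in the tables was read as RNC-mRNA and A as mRNA, since a C occurs in the sample titles only in RNC.

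Ratios, shifts and counts were computed with Python 3.11.15, pandas 2.3.3 and numpy 2.4.6, with a pseudocount of 0.1 RPKM and a filter at 1 RPKM, and TMM factors with edgeR 4.0.16 in R 4.3.3. No p-value was computed. A fit that treats the 2 related lines as one group was not run, since they are not replicates. Fold changes on (RPKM + 0.1) understate those of low genes. The calculation was tested on simulated data. The genes, 35 lists and alternatives were chosen with earlier results of these data known. Named genes were, at 5 RPKM in all 6 libraries, the 12 highest and 12 lowest past the 2-fold rule by the smaller pairwise shift, and of each list up to 2 members with the highest and 2 with the lowest shift. Others named are members past the rule, genes shown for their sequence, markers, genes at the edge of the filter and an added hypoxia list. Names were matched to RefSeq (GRCh38.p14) for 9422 of 9662 genes. Protein length and N-terminal hydrophobicity were planned and not used here, as no protein sequences were at hand. Some genes past the rule are not reported here.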

Additional observations from a re-analysis of the deposited data

Results flagged for a closer look

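Both of the following were picked out because the ratio of RNC-mRNA to mRNA was at least 2-fold above that of the median gene in Hep3B and at least 2-fold below it in both HCCLM3 and MHCC97H. APOC2, the cofactor of lipoprotein lipase, had 315 RPKM (RNC-mRNA) over 119.8 (mRNA) in Hep3B, 1.56 over 6.97 in HCCLM3 and 1.87 over 8.99 in MHCC97H. Its shift of 3.727 (3.58 to 3.88) was the highest of all included genes, and centred ratios were 1.41 in Hep3B, -2.26 in HCCLM3 and -2.37 in MHCC97H. SLC51A, a subunit of the bile acid exporter, had 9.44 RPKM (RNC-mRNA) over 4.71 (mRNA) in Hep3B, 2.19 over 4.61 in HCCLM3 and 2.27 over 4.34 in MHCC97H, with a shift of 2.147 (1.99 to 2.31) and centred ratios of 1.01, -1.22 and -1.07. The mRNA of SLC51A was nearly equal in the 3 lines, whereas that of APOC2 was far higher in Hep3B. The difference between lines was not tested, as each line has 1 library per fraction.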

How the results depend on the processing

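Directions of the 26 genes named by rank or as flagged held under every alternative tried, with 108 of 284 values within the counting interval, 176 outside it and 0 of opposite sign. These genes were chosen as at least 2-fold apart in Hep3B, so a change of sign was unlikely from the start. Higher and lower counts were 304 and 452, and genes apart in HCCLM3 and MHCC97H 1 and 2. A pseudocount of 1 gave 210 lower and 0 for MHCC97H, and one of 0.01 gave 2 for HCCLM3. A filter at 5 RPKM, which left 5826 genes in place of 9662, gave 88, 144, 0 and 0. No filter, over more genes, gave 752, 895, 22 and 17. Counts over these unlike sets of genes cannot be compared directly. No centring gave 158 and 784, and TMM 508 and 265 with 1 for MHCC97H. A 1.5-fold rule gave 1262, 1437, 18 and 10. Length matching, added after the data were seen, gave 209 lower and 1 for MHCC97H, and matching on length and level 184 and 1. Leaving out HCCLM3 or MHCC97H kept both Hep3B counts within 1.5 times.

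Of 385 list medians under alternatives, 4 of lists with a median of at least 0.2 in size changed sign: giant cytoskeletal proteins (0.20 when length-matched), and with length and level matched cytosolic ribosomal proteins (-0.12), respiratory chain subunits (-0.022) and stress response mRNAs with upstream reading frames (-0.037). The cause was not tested. No paired analysis was possible because each line has 1 library per fraction and the ratio already pairs them. With 1 library each, variation between cultures is unmeasured, and depth limits only genes with few reads.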

Other observations

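The list of hypoxia-inducible genes was written after CA9 and NDRG1 had been seen at the top, so its count describes these libraries and supports nothing. Of 43 genes measured in any library, 35 were included, and 7 of the 35 were higher in Hep3B and 0 lower, against 3.15% and 4.68% of all included genes. Of the 35, 25 stood above 0, and the median shift was 0.44 (0.47 length-matched). They included SPAG4, IGFBP1, CA9, NDRG1, ALDOC and ALDOA. SPAG4, a nuclear envelope protein, had 6.90 RPKM (RNC-mRNA) over 1.67 (mRNA) in Hep3B, 6.58 over 11.7 in HCCLM3 and 3.72 over 6.05 in MHCC97H, a shift of 2.92. The list's median difference was -0.48 in RNC-mRNA and -1.20 in mRNA, so most of these mRNAs were scarcer in Hep3B in both fractions. ADM, adrenomedullin, had 5.25 RPKM (RNC-mRNA) over 3.15 (mRNA) in Hep3B, 56.7 over 32.4 in HCCLM3 and 46.2 over 25.6 in MHCC97H and PGK1, a glycolytic kinase, had 29.8 RPKM (RNC-mRNA) over 26.6 (mRNA) in Hep3B, 257 over 229.97 in HCCLM3 and 227 over 179 in MHCC97H, with shifts of 0.08 and 0.10. The glucose transporter SLC2A1 had 13.1 RPKM (RNC-mRNA) over 8.03 (mRNA) in Hep3B, 33.9 over 46.2 in HCCLM3 and 32.7 over 35.3 in MHCC97H, a shift of 1.16. EGLN1, the oxygen-sensing hydroxylase, stood at -0.59 and VEGFA, the angiogenic growth factor, at -0.21.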
